A study of Mus musculus with 14 samples.

Results

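The regions described here were open between genes in empty-vector mouse neural stem cells and had no peak in cells carrying the ZFTA-RELA fusion. The deposited ATAC-seq peaks of the 2 empty-vector (EV) and the 2 untreated fusion (ZR) libraries on chromosomes 1 to 19 were merged into 72575 regions. A region was kept where both EV lists and neither ZR list had a peak, and where it lay outside every protein-coding gene and more than 1 kb from the ends of these genes. This left 5070 fusion-lost regions between genes, out of 29576 merged regions between genes. The members were chosen by the presence or absence of a peak in these 4 lists, so their EV and ZR values are given as descriptions, and only the other 10 lists are independent of the choice. Without EV replicate 1 the same rule gave 9125 regions. In a bulk sample, loss of access in every cell and fewer cells with an open region cannot be told apart.

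ATAC-seq marks DNA that the Tn5 transposase can reach. In the ZFTA-RELA fusion, which drives many supratentorial ependymomas, the zinc finger protein ZFTA is fused to RELA, a transcription factor of the NF-kB pathway. Open chromatin far from genes often holds enhancers, and in neural stem cells many enhancers are bound by the factors SOX2 and POU3F2. Whether the open regions near Sox2, Olig1 and Olig2 described below act as enhancers was not tested.

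The study holds 14 libraries in 7 groups of 2, each from 50000 cells of brain origin labelled as neural stem cells and grown with EGF and FGF. EV cells carried an empty vector and ZR cells the fusion. ZR_DMSO, ZR_GSK343 and ZR_dmCitra were fusion cells whose titles name DMSO, the EZH2 inhibitor GSK343 (10 µM, 96 h) or dmCitra, the last with a treatment label of citraconate (10 mM), described in the design as an antagonist of the itaconate-producing enzyme ACOD1. DMSO_50K and Citraconate_50K formed a second library series, in which the cell line label is empty vector for DMSO_50K and fusion for Citraconate_50K (10 mM). The treatment protocol speaks of fusion cells only, and citraconate times are not assigned to libraries. ZR and ZR_DMSO carry a PBS vehicle label, EV replicate 1 a DMSO one and EV replicate 2 a PBS one. How the fusion was driven and whether a line was a single clone are not given in the labels. Nor is it said that replicates came from different cultures, and p-values here measure only the spread between libraries, which may be technical. Gene-end peaks (at most 1 kb from an end) were counted for 24 neural stem genes on these chromosomes. In the EV lists 20 and 21 genes had one, Sox2 and Nes among them. In the ZR lists 15 and 14 had one, without Sox2 and Nes. Pax6 had no gene-end peak in any of the 14 libraries, EV included.

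List length differed between libraries and bears on every look-up. On chromosomes 1 to 19 the lists held 34015 and 42242 peaks in EV, 43390 and 43094 in ZR, 11806 and 20051 in ZR_DMSO, 18324 and 55369 in ZR_GSK343, 44206 and 42591 in ZR_dmCitra, 51099 and 58475 in DMSO_50K, and 30735 and 28580 in Citraconate_50K. Read depth is unknown from these lists. The DMSO_50K libraries, labelled empty vector, had a peak in 75.3% and 81.5% of the 7764 between-gene regions gained with the fusion (a peak in both ZR lists and neither EV list), where the 8 fusion-labelled lists outside the rule had one in 6.21% to 80.1%. Of the 24 neural stem genes 16 and 18 had a gene-end peak in DMSO_50K, and Sox2 and Nes had none. These tallies lay between those of ZR and EV, but also within the 6 to 19 of the 8 fusion-labelled lists outside the rule. Since most gained regions were open in the DMSO_50K libraries, these are called the libraries labelled empty vector.

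Some members hold annotated RNAs, whose sequences can be shown. No protein-coding promoter can lie in these regions by the rule, but 1021 of them (20.1%) overlapped a long noncoding RNA gene, close to the 19.4% of all between-gene regions, with 18.2% of gained regions and 25.9% of the 3493 between-gene regions with a peak in all 4 EV and ZR lists (shared regions). A microRNA gene lay in 7 members, in none of the gained regions and in 11 shared regions. Of these 7 members 6 carry microRNAs of the miR-344 family, which sit in a cluster on chromosome 7 between Gm51483 and the imprinted gene Ndn. The mature sequences of RefSeq (GRCm38.p6) are shown because they show which family members shared the loss, with capitals marking the seed, bases 2 to 8, by which a microRNA recognises its targets.
miR-344d-1-5p: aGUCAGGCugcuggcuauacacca
miR-344b-5p: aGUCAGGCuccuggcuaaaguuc
miR-344g-5p: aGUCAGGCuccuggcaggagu
miR-344d-2-5p: aGUCUGGUugcuggcuauauucca
miR-344f-5p: aGUCAGUCuccuggcuggaguc
miR-344i: aAGUCAGGcuccuggcugga
miR-181a-5p: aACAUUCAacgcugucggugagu
miR-181b-5p: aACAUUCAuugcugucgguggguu

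The seed GUCAGGC was shared by miR-344d-1-5p, miR-344b-5p and miR-344g-5p, and miR-344i held GUCAGG 1 base further in. The 3p products from the Mir344d-1, Mir344d-2, Mir344b, Mir344g and Mir344f hairpins had other seeds. Seeds of the Mir344 hairpins outside the members are not given here, and a link between seed and loss was not tested. The members with miR-344 hairpins spanned 403 kb, from the region at chr7:61683043-61683445, which holds Mir344d-1, to the region at chr7:62085045-62085699, which holds Mir344i. The Mir344i region was the strongest, with an authors' fold enrichment over background of 25.9 in EV replicate 1 and 33.9 in EV replicate 2. The fold was 18.9 and 17.5 at Mir344b, 12 and 11.1 at Mir344d-1, 10.1 and 13.8 at Mir344d-2, 10.1 and 13.2 at Mir344g, and 6.32 and 6.35 at Mir344f. The cluster was not lost as a whole. Among 13 annotated Mir344 hairpins, 6 lay in members, and those of Mir344, Mir344c, Mir344d-3 and Mir344-2 had a peak in all 4 EV and ZR lists. In the interval there were 7 lost, 4 shared and 0 gained regions.

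Outside the rule, the regions of Mir344d-1, Mir344d-2, Mir344g and Mir344f had no peak in any of the 10 lists. Mir344b had one in ZR_dmCitra replicate 1, and Mir344i in ZR_dmCitra replicate 1, DMSO_50K replicate 2 and Citraconate_50K replicate 1. A single member, chr1:137966198-137966668, covered the Mir181a-1 hairpin and part of Mir181b-1, whose products share the seed ACAUUCA. Its fold was 6.95 and 10.1 in EV, and both DMSO_50K lists had a peak there.

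Promoters of noncoding genes gave a further set. In RefSeq windows of 300 bases around a gene start, mostly upstream of it, 134 members (2.64%) overlapped a window, against 1.34% of gained and 6.70% of shared regions, and 67 noncoding genes had a window wholly inside a member. These windows were searched on both strands for CAGCTG (an E-box that proneural factors bind), ACAATG (bound by SOXB1 factors), the POU octamer ATGCAAAT, TGANTCA (AP-1) and the NFI palindrome. None of these motifs contains another. CAGCTG was in 19 of the 67 windows (28.4%, against 16.3% of all 31396 windows and 17.9% of 9291 noncoding genes), ACAATG in 11 (16.4%, against 12.2% and 15.3%), ATGCAAAT in 2 (2.99%, against 1.75% and 1.87%), TGANTCA in 3 (4.48%, against 7.84% and 9.46%) and the NFI palindrome in 0 (against 0.0382% and 0.0323%). These shares are descriptions of few windows.

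The window of Gm35255 lies inside a member (chr3:34949802-34950299) whose nearest protein-coding gene end, 297341 bp away, is that of Sox2. It is shown because it held both an octamer, read on the opposite strand, and an E-box, both in capitals. The window of Gm52261, inside the member chr16:91232934-91234156, 4257 bp from Olig2, is shown as a counterpart with no match to any of the motifs. The windows of G630093K05Rik (nearest to Id4), Gm46091 (Pou3f3) and Gm15831 (Hopx), also inside members, had no match either. Both sequences shown are from RefSeq (GRCm38.p6). The Gm35255 window is at chr3:34949977-34950276 on the plus strand and the Gm52261 window at chr16:91233725-91234024 on the minus strand.
Gm35255: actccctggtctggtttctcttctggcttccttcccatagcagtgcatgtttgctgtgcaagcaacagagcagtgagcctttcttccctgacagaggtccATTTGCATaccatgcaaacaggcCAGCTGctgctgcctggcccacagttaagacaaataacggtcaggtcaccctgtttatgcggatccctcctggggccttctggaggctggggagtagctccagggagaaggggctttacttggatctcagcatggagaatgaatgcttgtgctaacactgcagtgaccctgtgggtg
Gm52261: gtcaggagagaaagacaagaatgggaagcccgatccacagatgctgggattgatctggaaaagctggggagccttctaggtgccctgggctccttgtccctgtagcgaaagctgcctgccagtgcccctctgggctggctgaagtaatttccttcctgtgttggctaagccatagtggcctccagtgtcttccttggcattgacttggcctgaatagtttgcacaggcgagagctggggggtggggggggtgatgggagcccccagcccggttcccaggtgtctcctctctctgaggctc

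The Gm35255 region had a fold of 12 and 11.6 in the EV libraries and the Gm52261 region 11.4 and 14.8. Neither had a peak in any of the 10 lists outside the rule.

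The lost regions were common and mostly of middle strength in EV. Over all merged regions 11318 (15.6%) were lost and 16194 (22.3%) gained. Between genes the lost share was 17.1% and the gained share 26.3%, and inside genes 18.0% were lost and at gene ends 5.93%. Members had a median width of 499 bp (quartiles 364 and 689), against 461 bp for gained and 792 bp for shared regions, and covered 2.82 Mb. Their median fold was 8.84 in EV replicate 1 (range 4.42 to 61.9) and 9.52 in EV replicate 2 (range 4.23 to 61.9), while shared regions had 10.7 and 12.2 in the same lists. Ranked within each list by −log10 q, so that 100 is the strongest peak, members had a median percentile of 42.8 and 52.1, against 54.6 and 63.0 for shared regions. Only 59 members (1.16%) had both EV peaks in the top 10% of their list, and 565 (11.1%) had one in the lowest 10%.

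The EV peaks of a member lay close together, which the rule favours because both lists had to overlap the same merged region. The following values are therefore descriptions and no check on the replicates. Each list had a single peak in 4994 members (98.5%), and the summits of the best peaks lay a median of 53 bp apart. Over the 5070 members the percentiles of the EV replicates had a Spearman correlation of 0.775, given as a description because both lists share the selection.

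At the limits of the rule, a further 685 between-gene regions had a peak in both EV lists and in 1 ZR list, with a median percentile of 18.2 in that ZR list. Another 5377 had a peak in 1 EV list and in no ZR list, 3958 of them in the longer list of EV replicate 2. The members nearest to the distance limit lay 1008 bp from Serinc5 (fold 5.05 and 5.29) and 1016 bp from Irs1 (6.95 and 7.41). Lost regions just inside it lay 980 bp from Arc (5.05 and 5.29) and 974 bp from Gfus (8.84 and 8.99). A ZR peak stood within 1 kb of the edge of 240 members (4.73%), and 681 members (13.4%) had none within 100 kb.

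The 12 best-ranked members lay 12438 to 1278032 bp from a protein-coding gene, with a median of 60280.5 bp, near the 54816 bp of all members. The first was chr2:142437357-142438920, 44391 bp from an end of Macrod2, a gene for an ADP-ribose hydrolase, with a fold of 61.9 in both EV libraries. Both ZR_GSK343 lists had a peak there and none of the other 8 did. Next came chr10:105638509-105640512 near Tmtc2 (51.8 and 51.3), which DMSO_50K replicate 2 also had.

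Members near Astn2, a neuronal migration gene, ranked 3 (chr4:66482384-66483819, fold 45.5 and 58.7) and 7 (chr4:66425620-66426585, 38.5 and 48.1). Regions near Gm52523 (46.1 and 47.6), Lmo4 (41.1 and 49.7), which encodes a LIM-only transcription cofactor, Atpsckmt (41.7 and 43.4) and Tbc1d30 (37.9 and 43.9) followed. Both DMSO_50K lists had a peak at the Astn2, Gm52523, Lmo4 and Atpsckmt regions, and replicate 2 alone at Tbc1d30. At the Lmo4 region both ZR_dmCitra lists had one too.

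The remaining 4 had no peak in any of the 10 lists. They were chr4:15719815-15720509 near Calb1, the gene of the calcium buffer calbindin (37.9 and 50.8), chr6:75602435-75603605, which lies 1278032 bp from Ctnna2 (37.9 and 50.3), chr6:81660113-81661691 near Gcfc2 (41.7 and 41.8) and chr7:40884576-40885573 near Vstm2b (38.5 and 40.7).

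Most genes near a member had a single one. The nearest protein-coding gene end belonged to 2666 genes. Of these 1574 had a single member, 171 had 5 or more, 34 of the 171 had no gained region and 30 had more gained than lost ones. The genes with the most members were Tbl1xr1, a corepressor subunit gene (15 members and 10 gained of 40 regions), Cdh5, the gene of VE-cadherin (14 and 0 of 30), the growth regulator gene Myc (14 and 16 of 59), Zfat (12 and 1 of 27), the stem cell factor gene Sox2 (12 and 2 of 27) and the adhesion receptor gene Adgrl2 (12 and 23 of 59). These counts also follow how many regions a gene has, and over all between-gene regions 17.1% were members. Lost and gained regions thus lay near the same gene at Tbl1xr1, Myc and Adgrl2.

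The 12 members nearest to Sox2 reached from 7477 to 496464 bp from the gene, with 1 shared region and 27 regions in all. The closest strong one was chr3:34662730-34665373, with a fold of 19.6 and 22.2 in EV. The highest values were 24 in EV replicate 1 (chr3:34445370-34445941) and 25.9 in EV replicate 2 (chr3:35088190-35089211). None of the 12 had a peak in any of the 10 lists outside the rule, against 3632 of all 5070 members (71.6%) with none. Around Olig2 and Olig1, neighbouring oligodendrocyte lineage factor genes on chromosome 16, there were 8 members and 0 gained regions. In all, 8 between-gene regions were nearest to Olig2, none of them shared, and 10 to Olig1, 2 of them shared. Of the 8 members, 7 had no peak in any of the 10 lists, and chr16:91191304-91192170 had one in ZR_GSK343 replicate 2. The members nearest to Olig1 had their strongest peak at chr16:91303850-91304671 (22.7 and 24.3).

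Pou3f2, which encodes a neural POU factor, had 5 members among 7 between-gene regions and no gained or shared one. The strongest was chr4:22493732-22495801, 5366 bp from the gene (20.8 and 32.8), without a peak in the 10 lists. The member chr4:22835254-22836309 (20.2 and 24.9) had one in both DMSO_50K lists. A different pattern was seen near Nfia, the gene of a gliogenic nuclear factor. All 4 of its members had a peak in both DMSO_50K lists, whereas of the 8 other lists only Citraconate_50K replicate 2 had one, at chr4:97476585-97477419. These regions had EV folds of 9.47 to 17.7 in replicate 1 and 7.94 to 29.6 in replicate 2.

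**Figure D1:**
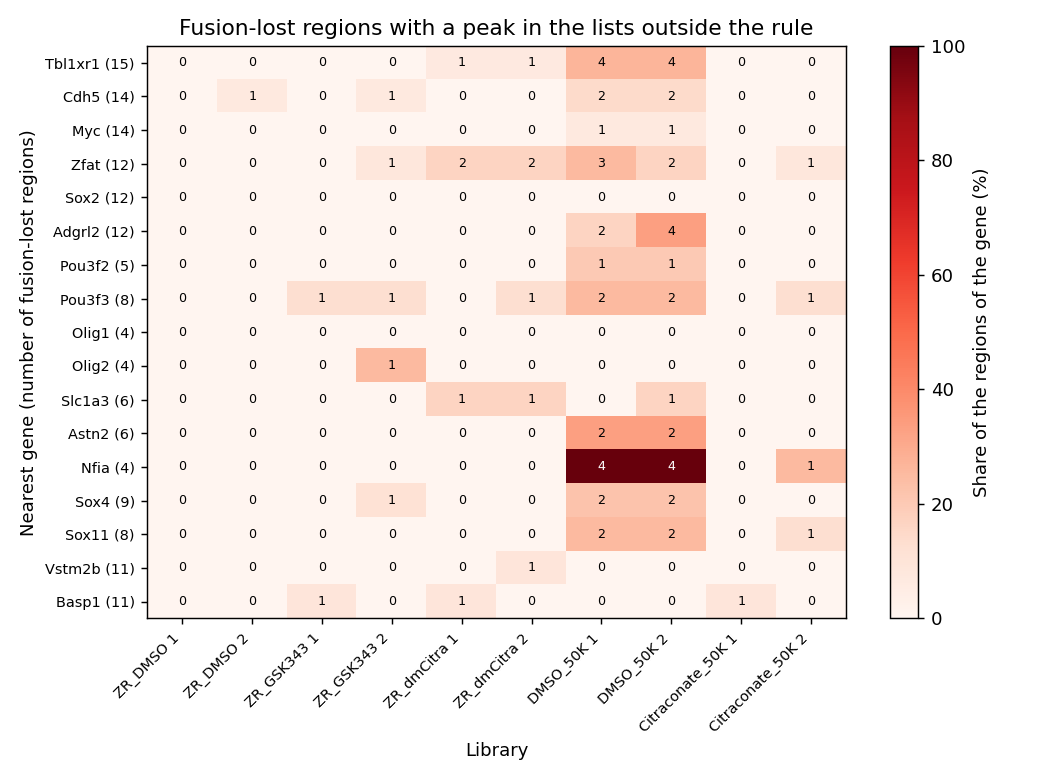
Number of fusion-lost regions nearest to each gene (rows, with the number of regions in brackets) that had a peak in each of the 10 lists outside the rule (columns); shading gives the share in percent. Sox2 and Olig1 had none in any list, and Nfia had 4 of 4 in both DMSO_50K lists.

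Gene lists were compared by how many of their between-gene regions were members, counting regions whose nearest gene end lay within 500 kb, where 17.2% of all 28317 regions were members. For 25 neural stem genes 48 of 170 regions (28.2%) were members, near 16 genes, and 39 were gained. Besides Sox2 a well-ranked one lay near Pax6, the gene of a neural progenitor factor (chr2:105604576-105605181, 19.6 and 20.6). Near some genes of this list gained regions outnumbered members, as near Sox9, a gliogenic factor gene, with 6 members and 15 gained regions. Gained regions also outnumbered members over all regions within 500 kb (7362 against 4857). For 12 POU and SOX factor genes 37 of 116 (31.9%) were members and 16 gained, led by Pou3f2, Pou3f3 (chr1:42684168-42685402, 14.5 and 17.5) and Sox11 (chr12:27575556-27576592, 14.5 and 22.2). Sox4 had 9 members, the most on that list.

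For 22 neural adhesion genes 35 of 110 regions (31.8%) were members and 24 gained, with Astn2 first and Ntm, a neural cell adhesion gene, among the best-ranked (chr9:30137350-30138331, 21.5 and 29.6). Oligodendrocytic genes had 10 of 34 (29.4%) and 4 gained, but 8 of the 10 lay near the neighbours Olig1 and Olig2, with Nkx2-2 (6.32 and 11.1) next. Astrocytic genes had 18 of 73 (24.7%) and 14 gained, led by the glutamate transporter gene Slc1a3 (chr15:8780739-8781846, 23.4 and 29.1), Nfia and Nfib (11.4 and 14.8). Neuronal genes had 4 of 21 (19.05%) and 4 gained, at Gad1 (10.1 and 9.52), Dlx2 (7.58 and 8.99) and Dlx5 (6.32 and 7.94).

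Mesenchymal and vascular genes had 19 of 63 (30.2%) and 9 gained, but 12 of the 19 lay near Cdh5 (best chr8:103964110-103965386, 26.5 and 23.3), with Col1a2 (14.5 and 22.2) and Dcn (8.21 and 11.1) next. NF-kB target genes had the fewest of the lists with a member, 3 of 45 (6.67%) against 15 gained, at Nfkb1 (8.84 and 8.46) and the NF-kB inhibitor gene Tnfaip3 (10.7 and 7.94). No member lay near the 8 motile cilia genes, which had 2 regions in all. Regions near the same gene are not independent, so these shares are descriptions.

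Members had the largest median distance to genes of the lost, gained and shared classes. The median distance to the nearest protein-coding gene end was 54816 bp, against 43122 bp for gained and 28222 bp for shared regions. Within 10 kb lay 15.5% of members, 20.0% of gained and 27.6% of shared regions, while 213 members (4.20%) lay 500 kb or more away, against 5.18% of gained and 1.80% of shared regions. Neighbouring members were a median of 141429 bp apart and gained regions 81767 bp.

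**Figure D2:**
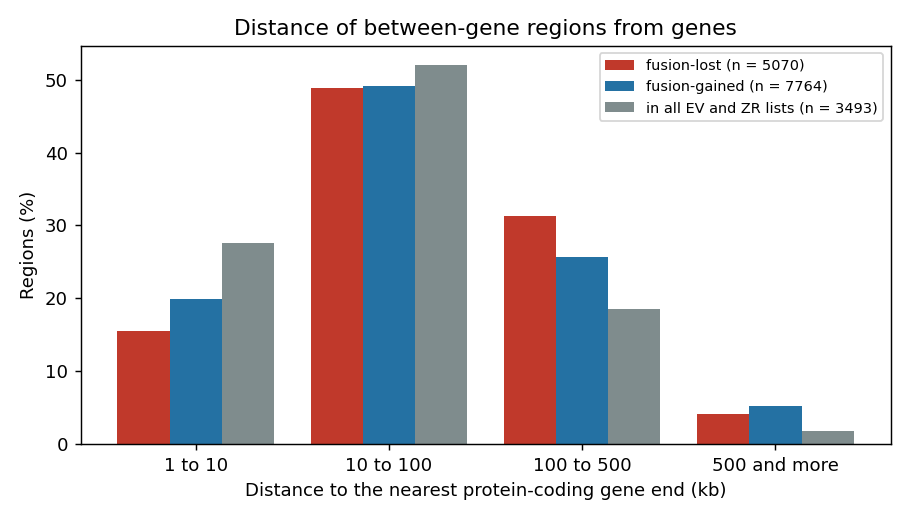
Share in percent of fusion-lost, fusion-gained and shared between-gene regions (bars) in 4 classes of distance to the nearest protein-coding gene end, in kb. Fusion-lost regions have the lowest share under 10 kb (15.5%) and the highest from 100 to 500 kb (31.3%).

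In windows of 1 Mb, 447 of 1572 windows with a member held a single one, and 35 windows held 10 or more. The fullest windows had 14 members each. They were chromosome 3, 21000001 to 22000000 (near Tbl1xr1, 9 gained, 3 shared) and chromosome 7, 40000001 to 41000000 (near Vstm2b and Gm33989, 0 gained, 1 shared). The last was chromosome 8, 103000001 to 104000000 (between Cdh11 and Cdh5, 0 gained, 0 shared). Each also held 9 between-gene regions that were neither lost, gained nor shared. Such counts follow how many regions a window has, and 17.1% of all between-gene regions were members.

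Chromosome 4 stood apart. There 357 of 1262 between-gene regions (28.3%) were members and 14.4% gained. On the other chromosomes between 13.0% (chromosome 2) and 21.7% (chromosome 15) were members and 19.4% to 31.1% gained. Outside the between-gene class 22.8% of the regions of chromosome 4 were lost as well. The members near Pou3f2, Astn2, Nfia, Nfib and Calb1 lie on it, so that loss at these genes and a change along the chromosome cannot be told apart. In the DMSO_50K lists 23.0% and 28.9% of chromosome 4 members had a peak, against 16.0% and 20.1% of all members. Chromosome 19 came close, with 20.0% and 27.6%. Without chromosome 4 there were 4713 members.

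**Figure D3:**
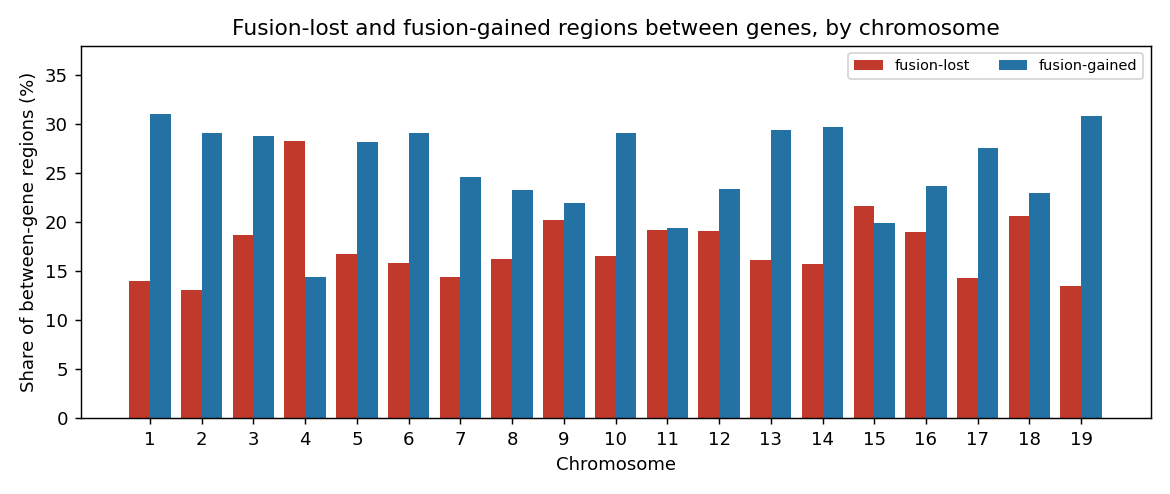
Share in percent of the between-gene regions of each chromosome that were fusion-lost or fusion-gained (bars). Chromosome 4 has the highest lost share (28.3%) and the lowest gained share (14.4%).

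The look-up in the 10 lists outside the rule asked whether members stayed closed in other fusion-labelled libraries and were open in the other libraries labelled empty vector. Members had a peak in 0.375% and 0.572% (19 and 29 regions) in ZR_DMSO, 1.18% and 5.94% in ZR_GSK343, 4.44% and 3.83% in ZR_dmCitra, and 3.49% and 3.20% in Citraconate_50K. In the DMSO_50K libraries, labelled empty vector, they had one in 16.0% and 20.1% (811 and 1019 regions). Both DMSO_50K values thus lay above all 8 others, and far below the 100% that the rule fixes in EV. Shared regions had a peak in 88.3% and 92.6% in DMSO_50K, and in 32.6% to 89.4% in the 8 fusion-labelled lists.

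The DMSO_50K mean was 18.0% ± 2.90 (SD, n = 2) and that of the 8 fusion-labelled libraries 2.88%, a difference of 15.2 percentage points (two-sided exact permutation p = 0.044, the smallest that 2 against 8 libraries allow). Adjusted over 8 tests by the Benjamini-Hochberg method the exact permutation p was 0.356, so the difference did not pass 0.05, which no adjusted value could do with these numbers of libraries. The 8 libraries pool vehicle, GSK343 and citraconate groups, and all but Citraconate_50K are outside the second series of DMSO_50K. Line label, treatment and series therefore cannot be told apart in this difference. DMSO_50K lists were also the longest but for ZR_GSK343 replicate 2, whose length lay between theirs and whose share was 5.94%. As a percentage of the share of shared regions in the same list, members reached 18.1% and 21.7% in DMSO_50K, 1.15% and 1.24% in ZR_DMSO, 3.61% and 7.23% in ZR_GSK343, 4.97% and 4.34% in ZR_dmCitra, and 5.03% and 4.71% in Citraconate_50K.

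At equal list length (11806 peaks each) members had a peak in 1.07% and 1.26% in DMSO_50K and in 0.0592% to 0.533% in the 8 fusion-labelled lists. Gained regions had one in 20.7% and 21.9% in DMSO_50K and in 3.00% to 21.8% in the 8 lists. The rule sets the values of its own lists, which were 20.0% and 19.5% of members in EV and 20.4% and 19.9% of gained regions in ZR, so they are given only for scale. The difference between DMSO_50K and the 8 fusion-labelled libraries was 0.900 points at that length (exact permutation p = 0.044, adjusted 0.356). In all 10 lists the peaks on members had a lower median percentile than those on shared regions, 33.0 and 36.1 against 69.4 and 71.3 in DMSO_50K and 20.7 and 20.1 against 63.9 and 62.6 in ZR_dmCitra.

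**Figure D4:**
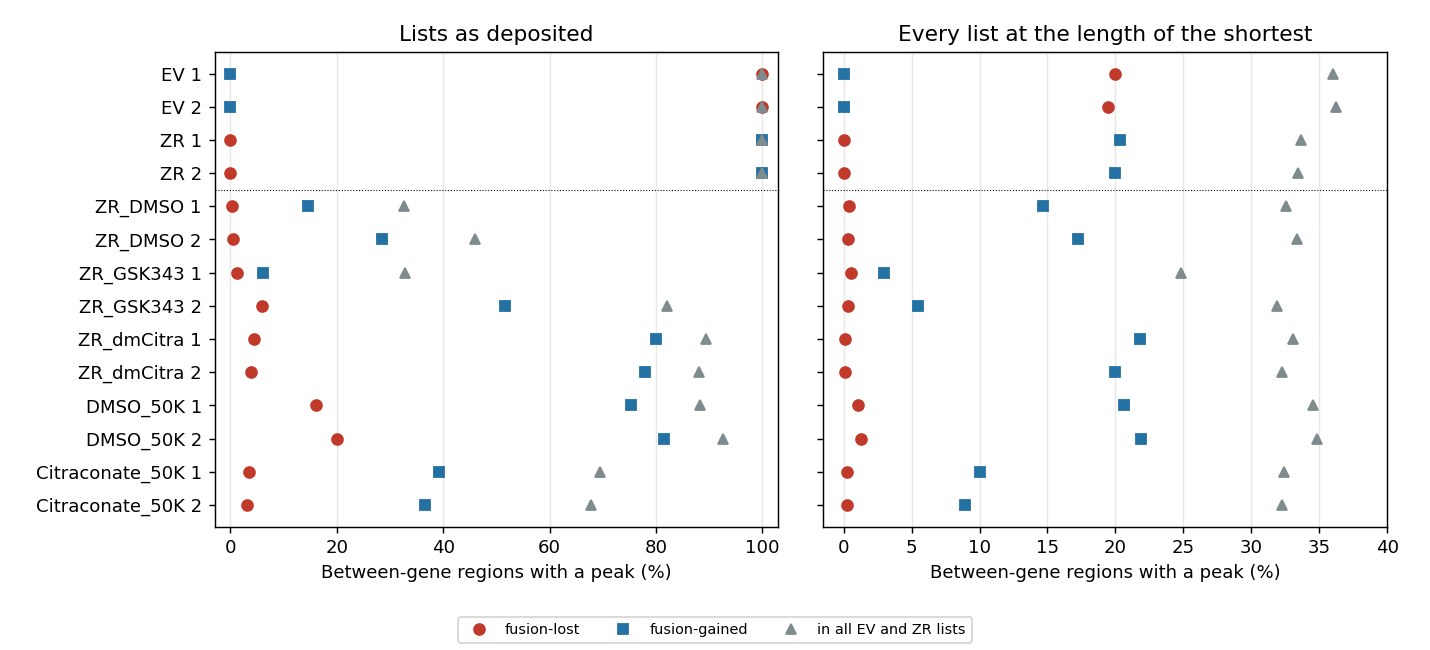
Share in percent of fusion-lost (circles), fusion-gained (squares) and shared (triangles) between-gene regions with a peak in each library, with lists as deposited (left) and all at 11806 peaks (right); the dotted line separates the 4 lists of the rule. On the right the DMSO_50K lists have 1.07% and 1.26% of the lost regions and the 8 fusion-labelled lists 0.0592% to 0.533%; the EV and ZR points follow from the rule.

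In DMSO_50K the share with a peak was higher among stronger regions, for members as for shared and gained regions. Split by the poorer of their EV percentiles, 12.1% and 16.7% of the 1259 members under 20 had a peak in the 2 DMSO_50K lists, and 28.9% and 33.6% of the 304 members at 80 or more. In DMSO_50K replicate 1 the same split gave 77.8% and 98.0% for shared regions, and by ZR percentile 56.1% and 97.9% for gained regions. In ZR_dmCitra the same classes had 5.88% and 5.24%, and 4.93% and 3.29%. In ZR_GSK343 replicate 2 they had 7.94% and 4.93%. All members of a class share 1 library per value, so these are descriptions.

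**Figure D5:**
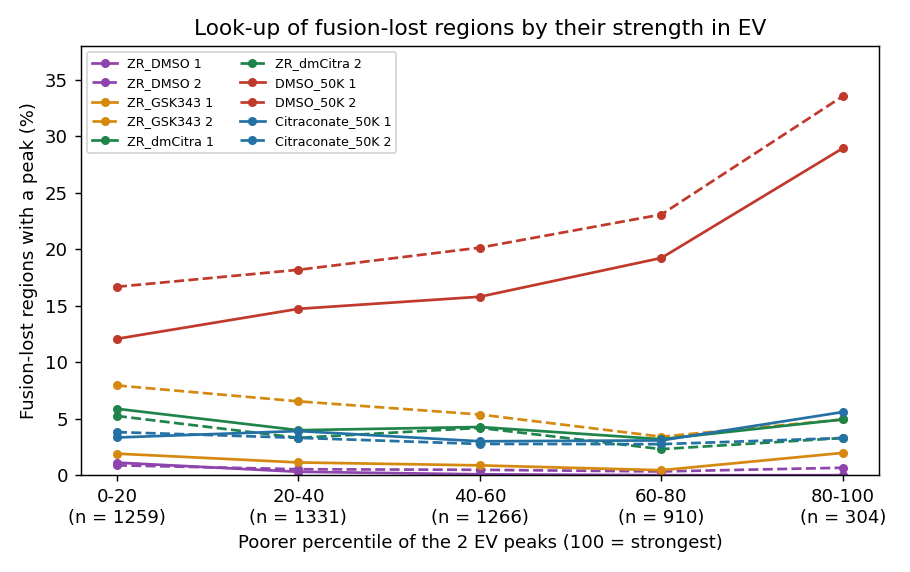
Share in percent of fusion-lost regions with a peak in each of the 10 lists outside the rule (lines, solid for replicate 1 and dashed for replicate 2) by class of the poorer EV percentile, where 100 is the strongest peak. The DMSO_50K lines run from 12.1% and 16.7% to 28.9% and 33.6%, and every other point stays under 8%.

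Over the 10 lists 3632 members (71.6%) had no peak in any, 498 had one in a single list and 71 (1.40%) in 5 or more. Both DMSO_50K lists had a peak at 721 members (14.2%), against 72.7% of gained and 87.0% of shared regions. At 489 of the 721 none of the 8 fusion-labelled lists had one. Some fusion-labelled list had a peak at 669 members, of which 340 also had one in a DMSO_50K list. The other counts here were not set beside those of gained or shared regions. No member had a peak in all 10 lists. The 4 best-ranked of those with a peak in 9 lists were of modest strength and lay 128 to 2169 bp from a ZR peak. They were chr13:66588934-66589392 (8.21 and 7.94), chr17:3022804-3023081 (8.21 and 10.1), chr16:3240757-3241820 (6.95 and 8.99) and chr7:39200174-39200554 (6.32 and 6.88).

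EZH2 inhibition with GSK343 was set against ZR_DMSO. EZH2 writes the repressive histone mark H3K27me3. The share of members with a peak was 3.56% ± 3.36 in ZR_GSK343 and 0.473% ± 0.139 in ZR_DMSO (SD, n = 2 each), a difference of 3.09 points (exact permutation p = 0.33, the smallest possible for 2 against 2; adjusted 0.381). It was 0.710 points without ZR_GSK343 replicate 2, 5.46 points without replicate 1 and 0.0690 points at equal list length. Both ZR_GSK343 lists and neither ZR_DMSO list had a peak at 21 members (0.414%), below the 2.5% of all between-gene regions, and the reverse held at 0 members, against 0.71%. Members in both ZR_GSK343 lists numbered 41 (0.809%, against 5.91% of gained and 32.6% of shared regions), the Macrod2 region among them. Lost regions at gene ends had a peak more often than members in the 2 ZR_GSK343 lists, with 7.23% and 35.2%. The same held in ZR_dmCitra (11.1% and 9.41%), DMSO_50K (25.6% and 30.8%) and Citraconate_50K (17.74% and 15.01%). It was thus not limited to GSK343. In ZR_DMSO the gene-end shares were 0.273% and 1.23%, against 0.375% and 0.572% of members, so replicate 1 went the other way. These differences were not tested.

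Citraconate in the first series gave a share of 4.13% ± 0.432 in ZR_dmCitra against 0.473% ± 0.139 in ZR_DMSO (SD, n = 2 each), a difference of 3.66 points (exact permutation p = 0.33, adjusted 0.381). At equal list length the difference was -0.286 points. Both ZR_dmCitra lists and neither ZR_DMSO list had a peak at 93 members (1.83%), while this held for 23.3% of all between-gene regions and 43.9% of gained ones. The reverse held at 3 members (0.0592%), against 0.284%. Both ZR_dmCitra lists had a peak at 108 members (2.13%), against 72.3% of gained and 84.3% of shared regions. These 108 shared 38 with the members in both DMSO_50K lists, which is 35.2% of the first set and 5.27% of the second.

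Citraconate in the second series was compared with the libraries labelled empty vector, so that treatment and line label cannot be told apart. Members had a peak in 3.34% ± 0.209 in Citraconate_50K and 18.0% ± 2.90 in DMSO_50K (SD, n = 2 each), a difference of -14.7 points (exact permutation p = 0.33, adjusted 0.381). It was -0.927 points at equal list length. Both DMSO_50K lists and neither Citraconate_50K list had a peak at 579 members (11.4%), against 19.5% of all between-gene regions, 32.6% of gained and 15.5% of shared ones. The reverse held at 2 members (0.0394%), against 0.801%.

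The share of lost minus that of gained regions, taken within each list, was 100 points in EV and -100 in ZR by the rule. It was -59.3 and -61.4 in DMSO_50K, -14.3 and -27.9 in ZR_DMSO, -5.02 and -45.7 in ZR_GSK343, -75.7 and -74.2 in ZR_dmCitra, and -35.7 and -33.4 in Citraconate_50K. All 10 values were below 0, those labelled empty vector included. The differences were -4.30 points for ZR_GSK343 (exact permutation p = 1, adjusted 1) and -53.9 for ZR_dmCitra against ZR_DMSO (exact permutation p = 0.33, adjusted 0.381). They were 25.7 for Citraconate_50K against DMSO_50K (exact permutation p = 0.33, adjusted 0.381) and -21.3 for DMSO_50K against the 8 fusion-labelled libraries (exact permutation p = 0.311, adjusted 0.381). At equal list length they were 11.8, -5.22, 10.9 and -7.74 points in the same order.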

How the data were processed

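ATAC-seq peak lists of 14 libraries were used. Per the submitters' processing notes the build is mm10 and the tools include BWA, SAMtools and Picard (no version named). Peak names in the deposited lists show that the authors ran MACS2 on single libraries; its settings and any Tn5 shift were not given in the sources used here. The deposited columns used were the position, the fold enrichment (a ratio over background), the −log10 q and the summit offset; the deposited score and −log10 p-value were not analysed. The lists hold no counts, so no counting interval can be given.

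Peaks sharing at least 1 bp were merged. Genes came from a RefSeq table (GRCm38.p6, same coordinates as mm10; 21900 protein-coding), and distances were taken to the nearest gene end. Members and lists were chosen with earlier results of these data known. Named regions were the 12 best by the poorer EV rank, the 6 genes with most members, up to 3 genes per list (some are not reported here), the 4 best-ranked members in none and in most of the 10 lists, the 3 fullest windows and those next to the distance limit; Olig1, Olig2, Pou3f2, Nfia, Sox4 and Sox9 details, the microRNAs, promoter windows and motifs were picked after their values were seen. Comparisons of groups used exact permutation of libraries (two-sided). The code was tested on simulated lists, where 100% of planted lost regions were recovered. Python 3.11.15 with numpy 2.4.6, pandas 2.3.3, scipy 1.17.1 and matplotlib 3.10.9 was used.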

Additional observations from a re-analysis of the deposited data

Results flagged for a closer look

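With lists as deposited, citraconate went with opposite differences in the 2 library series. The share of fusion-lost between-gene regions with a peak was 3.66 points higher in ZR_dmCitra than in ZR_DMSO and differed by -14.7 points between Citraconate_50K and DMSO_50K, with every library of one series on the other side of its control from those of the other series. The share of lost minus gained regions differed by -53.9 and 25.7 points, and the share relative to shared regions by 3.46 and -15.0 points. At equal list length the opposition was gone for the share of members (-0.286 and -0.927 points) and remained for lost minus gained regions (-5.22 and 10.9 points). The difference between the series was not tested. The controls carry a fusion label in the first series and an empty-vector label in the second, so treatment and line label cannot be told apart in the second.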

How the results depend on the processing

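The number of members was 3860 to 5145 under the planned settings other than leaving out a library, from equal list length to other gene-end distances and noncoding genes counted as genes. Leaving out a library gave 5404 to 9125, the highest without EV replicate 1, against 6585 without EV replicate 2. Without an EV list fewer lists had to hold a peak, and without a ZR list fewer had to lack one. EV replicate 2, the longer EV list, is the one left when replicate 1 is out. At equal list length the difference in the share of members between ZR_dmCitra and ZR_DMSO turned to -0.286 points, and that in lost minus gained share between ZR_GSK343 and ZR_DMSO turned to 11.8 points. The latter also turned to 2.50 points without ZR_DMSO replicate 1 and to 16.1 without ZR_GSK343 replicate 2 (-24.7 without ZR_GSK343 replicate 1); the cause was not tested. The other 88 alternative values of the differences kept their direction, which those with the replicate number as a block (below) do by construction. The other 11 member counts were within 1.5 times the reported one. Requiring the EV summit in a peak, scaling to shared regions and leaving out the 3 shortest lists were added after the data were seen; without these lists the difference between DMSO_50K and the remaining 5 fusion-labelled libraries was 13.9 points (exact permutation p = 0.0952, the smallest for 2 against 5).

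With the replicate number as a block, the differences in share of members were 3.09, 3.66 and -14.7 points (exact sign-flip permutation p = 0.5 each, the smallest for 2 pairs). By construction these equal the unblocked differences and no call could change, so the block gives no check. Nothing in the labels ties same-numbered libraries together. Depth is unknown from the lists, and no test here could pass 0.05 after adjustment.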
